A study of Mus musculus with 7 samples.

Results

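The CC chemokines named Ccl2, Ccl5, Ccl6, Ccl7, Ccl8, Ccl9, Ccl11, Ccl19, Ccl20 and Ccl25 were examined in cancer-associated fibroblasts (CAFs) from mouse pancreatic tumors. The genes were chosen by name, and 9 of the 10 named genes had a row among the 12771 genes of the count table. Ccl20 was not analysed here. CAFs were sorted as live PDPN+ cells without CD45, CD31 or EpCAM from orthotopic tumors of male C57BL/6 J mice. By the methods, the mice were 8 weeks old when injected, and tumors were taken 2 to 3 weeks later. Tumors were formed by KPC cells, a line of mouse pancreatic ductal adenocarcinoma, which had been infected with a lentiviral pLKO.1 vector and selected with puromycin. KPC-shControl cells carried a non-targeting hairpin and KPC-shBrca2 cells a hairpin against Brca2. The hairpins were in the cancer cells and not in the fibroblasts, and whether each line was clonal is not given in the sources used here. Each library came from 1 mouse, with 3 mice in the shControl group (numbered 1, 2 and 4) and 4 in the shBrca2 group (numbered 1 to 4), and the comparison asks how a loss of Brca2 in cancer cells goes with fibroblast expression.

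CC chemokines are small secreted proteins that carry adjacent cysteines near their amino terminus and draw leukocytes along a gradient by binding G protein-coupled receptors on them. Fibroblasts are a known source of the monocyte chemoattractants and of eotaxin, while other members are better known from macrophages, T cells or lymphoid tissue. Their transcription is commonly induced by TNF, IL-1, interferons or IL-4 type cytokines, in part through NF-kB. The proteins are held on heparan sulfate, trimmed by proteases such as dipeptidyl peptidase 4 and taken up by atypical receptors that do not signal through G proteins.

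RNA was counted from the 3' ends of transcripts, and total counts ran from 1898679 to 5990579 per library. Values below are counts divided by a DESeq2 size factor per library (normalised counts), and are given in the order of the replicates. Because tags come from the end of a transcript, levels of different genes were set side by side without a length term, although mapping can differ between genes. A gene was called when DESeq2 gave an adjusted p under 0.1, the log2 fold change was beyond 0.5 in size and the mean normalised count was over 5. The sorted cells carried the fibroblast markers at high level. The 9 markers summed to 74950 to 80640 in shControl and 63540 to 68390 in shBrca2, with Col1a2, Dcn and Col1a1 the most abundant. Markers of other cells were present at lower levels and are given after the results on single genes. In bulk RNA of this kind, fewer cells of a type and less RNA per cell cannot be told apart.

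Of the 9 members, 2 were lower in CAFs from KPC-shBrca2 tumors, Ccl11 and Ccl7, and none was higher. Ccl11, the eosinophil attractant eotaxin, was 2.70-fold lower, and Ccl7, the monocyte chemoattractant MCP-3, was 1.81-fold lower. Ccl2 was the most abundant member and did not pass the test. Over all 12768 genes tested 9.04% were called, 5.27% lower and 3.77% higher, and with 9 members the 2 calls are a small number to read against that background. In 1 of the 9 members, Ccl11, the normalised counts of the groups did not overlap, against 17.1% of all listed genes and 9.29% in that direction. At an unadjusted p under 0.05, which 17.7% of all genes tested had, the same 2 members passed and none was higher. By edgeR, which called 5.88% of its genes lower, only Ccl11 was called among the members. The median log2 fold change of the members was -0.41 and that of all genes tested was 0.01.

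The members fell into an abundant and a scarce set. In the control CAFs the order was Ccl2, Ccl7, Ccl11, Ccl8, Ccl25, Ccl5, Ccl19, Ccl9 and Ccl6. Ccl2 lay above Ccl7 in every library, while Ccl7 and Ccl11 overlapped, with Ccl11 the higher in shControl replicate 1 and shBrca2 replicate 4. The lowest value of Ccl11 in any library, 159, was above the highest value of every scarce member, 71.4 for Ccl5. Neighbours within the scarce set overlapped in their ranges and were not ordered beyond their spread. Ccl2, Ccl7 and Ccl11 together made up 97.7% ± 0.421 of what was counted for the members in the controls (SD, n = 3), and 95.7% ± 2.86 in shBrca2 (SD, n = 4). By mean level Ccl2 stood above 97.0% of all listed genes, Ccl7 above 94.0% and Ccl11 above 92.0%. All members together took 0.104% ± 0.0130 of the total count in shControl (SD, n = 3; 0.0923% to 0.118%) and 0.0697% ± 0.0224 in shBrca2 (SD, n = 4; 0.0513% to 0.102%), and these ranges overlapped.

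**Figure D1:**
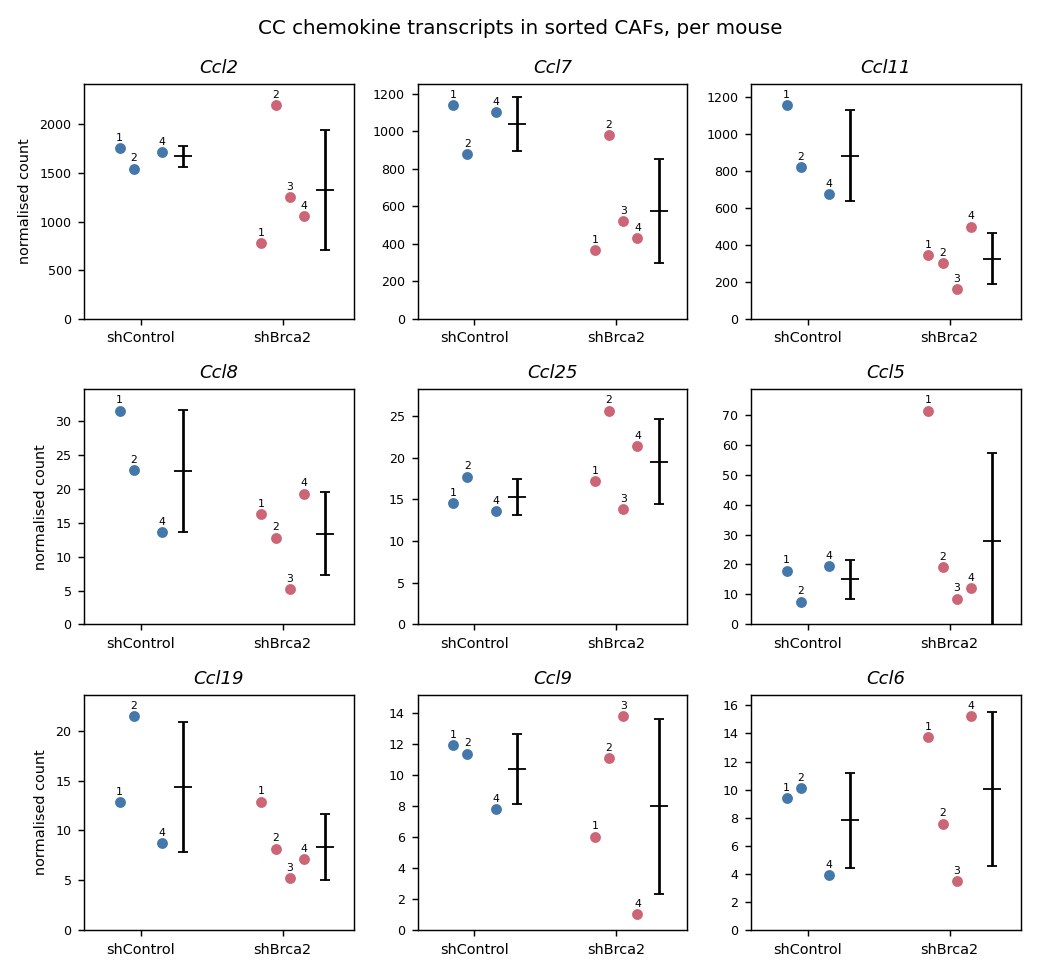
Normalised counts (vertical axes, each from 0) of the 9 listed CC chemokines in the 3 shControl and 4 shBrca2 libraries. Points are mice with their replicate number, and bars are the mean ± SD of the group (the lower bar of Ccl5 in shBrca2 is cut off at 0). The groups do not overlap for Ccl11, and shBrca2 replicate 2 lies inside or above the control range for Ccl2 and Ccl7.

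Members with neighbouring positions on the chromosome were not all at the same level. In the RefSeq annotation of GRCm38.p6, the assembly also called mm10, 7 of the 9 members lie on chromosome 11. Ccl2 (82035577 to 82037452), Ccl7 (82045712 to 82047525) and Ccl11 (82057832 to 82062955) follow each other at gaps of 8.3 kb and 10.3 kb, and these are the 3 abundant members. Ccl8 (82115185 to 82116799), which is next at 52.2 kb, was scarce. Ccl5 (83525778 to 83530518), Ccl9 (83572917 to 83578636) and Ccl6 (83587886 to 83593087), all scarce, form another group 1409.0 kb further on. Ccl19 (chromosome 4, 42754525 to 42756365) and Ccl25 (chromosome 8, 4325205 to 4360020) were scarce as well.

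Ccl2 encodes MCP-1, the main ligand of CCR2 and an attractant of monocytes. It had 1754, 1546 and 1711 normalised counts in the shControl mice, against 779.7, 2199, 1249 and 1056 in the shBrca2 mice. The controls lay close together, whereas in shBrca2 3 libraries lay below all controls and replicate 2 lay above them. The coefficient of variation was 6.6% in shControl and 46.7% in shBrca2. The means were 1670.2 ± 109.7 (SD, n = 3) and 1321 ± 616 (SD, n = 4), and the log2 fold change was -0.34 (SE 0.30, DESeq2 adjusted p = 0.63, 95% interval -0.92 to 0.24). A difference of up to -0.92 on the log2 scale therefore stays within the interval. The value depended on single libraries. Without shBrca2 replicate 2 Ccl2 was called lower, at -0.71 on the log2 scale (DESeq2 adjusted p = 0.013), and without shBrca2 replicate 1 it was at -0.15 (DESeq2 adjusted p = 0.95).

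Ccl7 encodes MCP-3, which binds CCR2 and further CC receptors. The shControl libraries had 1140.3, 877 and 1103 normalised counts of it, against 367, 981, 522 and 431 in the shBrca2 libraries. The groups overlapped by 1 library, since shBrca2 replicate 2 lay above shControl replicate 2. Ccl7 fell from 1040.1 ± 143 (SD, n = 3) to 575 ± 278 (SD, n = 4), a log2 fold change of -0.85 (SE 0.30, DESeq2 adjusted p = 0.061, 95% interval -1.45 to -0.26). The direction was lower in all 14 alternative analyses, but the call held in 7 of them. The call was lost at a threshold of 0.05, with edgeR (adjusted p = 0.11) and when shControl replicate 1 (0.18), shControl replicate 4 (0.15), shBrca2 replicate 1 (0.22), shBrca2 replicate 3 (0.12) or shBrca2 replicate 4 (0.21) was left out. Without shBrca2 replicate 2 the log2 fold change was -1.25 (DESeq2 adjusted p = 1.9e-07), and without shControl replicate 2 it was -0.96 (DESeq2 adjusted p = 0.031).

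Ccl8, which encodes MCP-2, belongs to the same monocyte chemoattractant subfamily but was scarce in these cells. It had 31.6, 22.8 and 13.6 normalised counts in the shControl libraries and 16.4, 12.8, 5.18 and 19.3 in the shBrca2 libraries. The ranges overlapped, and raw counts ran from 3 to 37. The means were 22.7 ± 8.99 (SD, n = 3) and 13.4 ± 6.10 (SD, n = 4), and the log2 fold change of -0.72 (SE 0.47, DESeq2 adjusted p = 0.46, 95% interval -1.64 to 0.20) did not pass the test. That interval includes the log2 fold change of Ccl11 as well as 0.

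Ccl11 encodes eotaxin, the ligand of CCR3 that draws eosinophils and is made by fibroblasts. The shControl libraries had 1156, 819.8 and 672 normalised counts of Ccl11. The shBrca2 libraries had 343, 303, 159 and 498. Every shBrca2 library lay below every control, and within shBrca2 the lowest, replicate 3, and the highest, replicate 4, were well apart. Ccl11 fell from 883 ± 248 (SD, n = 3) to 326 ± 139 (SD, n = 4), a log2 fold change of -1.43 (SE 0.32, DESeq2 adjusted p = 0.00043, 95% interval -2.06 to -0.81). It was called lower in all 14 alternative analyses, at -1.71 to -1.19 on the log2 scale with adjusted p between 5.3e-06 and 0.02. Raw counts behind these values ran from 92 to 1353.

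**Figure D2:**
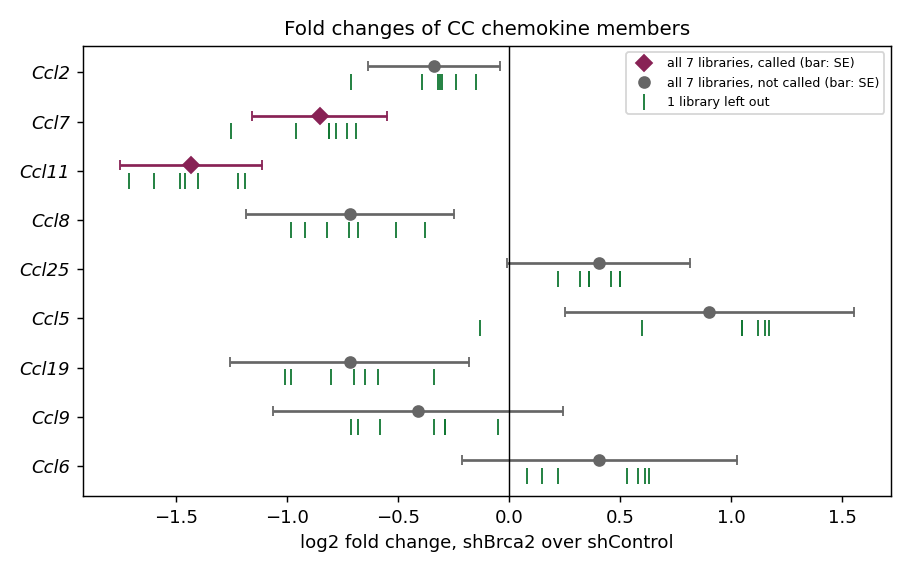
Log2 fold change of shBrca2 over shControl (horizontal axis) for each listed CC chemokine, with the standard error as a bar, and below it the values with 1 library left out in turn (ticks). Ccl11 and Ccl7, the called genes, stay below 0 in all 7 such fits, while Ccl5 crosses 0 in 1 of them.

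Ccl11 did not follow Ccl2 and Ccl7 across the shBrca2 mice. ShBrca2 replicate 2, the highest library for Ccl2 and for Ccl7 in that group, was below replicates 1 and 4 for Ccl11. The ratio of the genes within a library, which does not depend on the size factor, shows this directly. These ratios were examined after the levels had been seen. For Ccl7 to Ccl2 the ratio was 0.650, 0.567 and 0.645 in shControl and 0.470, 0.446, 0.418 and 0.408 in shBrca2. The groups did not overlap, and the spread within each was small although Ccl2 itself ranged widely in shBrca2. The mean log2 ratio was -0.69 ± 0.11 (SD, n = 3) against -1.20 ± 0.09 (SD, n = 4), so that shBrca2 minus shControl was -0.51 (exact permutation test, two-sided, p = 0.0571, 0.171 after Benjamini-Hochberg adjustment over 3 ratios). The two-sided p used here doubles the smaller tail. In that form 0.0571 is the smallest that the 35 divisions of 7 libraries can give, so it cannot reach 0.05. With 1 library left out the difference ran from -0.57 to -0.48.

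The ratio of Ccl11 to Ccl2 was 0.659, 0.530 and 0.393 in shControl and 0.440, 0.138, 0.127 and 0.472 in shBrca2. The shBrca2 libraries split, with replicates 2 and 3 far below the controls and replicates 1 and 4 among them. The difference of the mean log2 ratio was -1.07 (exact permutation test, two-sided, p = 0.171, adjusted 0.257), with values from -1.38 to -0.75 when 1 library was left out. For Ccl11 to Ccl7 the ratio was 1.01, 0.935 and 0.609 in shControl and 0.937, 0.309, 0.305 and 1.16 in shBrca2. The same replicates 2 and 3 were low, and the groups overlapped on both sides. Its difference of -0.56 had the two-sided p = 0.514 in the exact permutation test (adjusted 0.514), which with the doubled tail cannot reach 0.05 here.

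**Figure D3:**
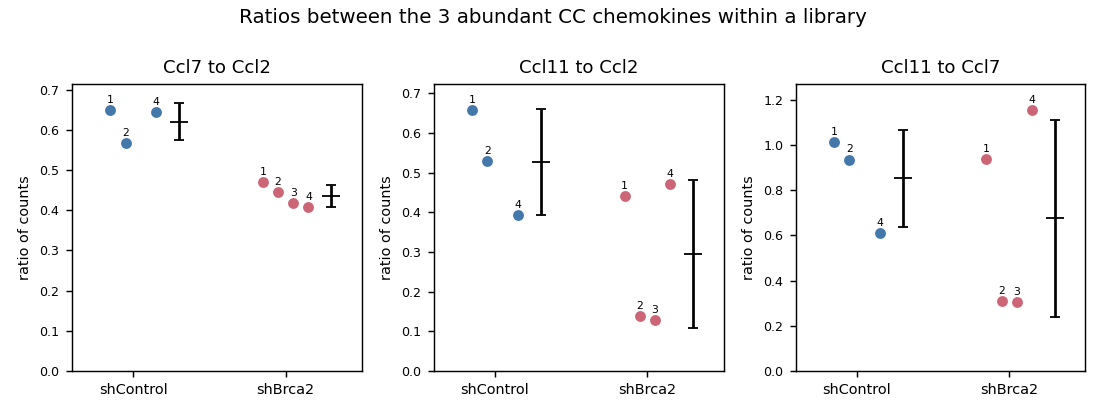
Ratio of normalised counts between pairs of the abundant members within each library (vertical axes from 0), with replicate numbers and the mean ± SD of the ratios per group. The ratio of Ccl7 to Ccl2 separates the groups (0.567 to 0.650 against 0.408 to 0.470), while both ratios with Ccl11 overlap.

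The macrophage and T cell chemokines Ccl5, Ccl6 and Ccl9 were scarce, and none passed the test. Ccl5 encodes RANTES, a chemokine known from T cells and from interferon responses. Its normalised counts were 17.9, 7.59 and 19.5 in shControl and 71.4, 19.2, 8.64 and 12.2 in shBrca2, so that shBrca2 replicate 1 stood far above the other 6 libraries. The means of 14.995 ± 6.46 (SD, n = 3) and 27.9 ± 29.4 (SD, n = 4) gave a log2 fold change of 0.90 (SE 0.65, DESeq2 adjusted p = 0.53, 95% interval -0.37 to 2.17). Without shBrca2 replicate 1 it was -0.13, and the sign of the Ccl5 value thus rested on that library.

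Ccl6 and Ccl9 encode CCR1 ligands of myeloid cells in rodents. Ccl6 had 9.40, 10.1 and 3.89 normalised counts in shControl and 13.8, 7.58, 3.45 and 15.2 in shBrca2 (log2 fold change 0.41, SE 0.62, DESeq2 adjusted p = 0.83, 95% interval -0.80 to 1.62). Ccl9 had 11.96, 11.4 and 7.78 in shControl and 6.02, 11.1, 13.8 and 1.02 in shBrca2 (log2 fold change -0.41, SE 0.65, DESeq2 adjusted p = 0.84, 95% interval -1.69 to 0.87). For both genes the shBrca2 range covered the control range. Raw counts were at most 16 for Ccl6 and 19 for Ccl9, and the intervals still include more than a 2-fold rise for Ccl6 and more than a 2-fold fall for Ccl9. By whole gene spans in the annotation, Ccl5 overlaps Gm32650, Ccl6 overlaps E230016K23Rik, Ccl19 overlaps 4930578G10Rik and Ccl25 overlaps LOC108167518. Strand handling was not given, and whether reads of these pairs can be told apart was not examined.

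The homeostatic chemokines Ccl19 and Ccl25 were also scarce. Ccl19, the CCR7 ligand made by reticular fibroblasts of lymphoid tissue, had 12.8, 21.5 and 8.76 normalised counts in shControl and 12.9, 8.16, 5.18 and 7.11 in shBrca2. The ranges overlapped through shBrca2 replicate 1 and shControl replicate 4, and the log2 fold change was -0.72 (SE 0.54, DESeq2 adjusted p = 0.55, 95% interval -1.77 to 0.34). RefSeq names 3 further copies of Ccl19 as pseudogenes, so these counts are uncertain. Ccl25, the CCR9 ligand of thymus and small intestine, had 14.5, 17.7 and 13.6 in shControl and 17.2, 25.6, 13.8 and 21.3 in shBrca2. Its log2 fold change was 0.40 (SE 0.41, DESeq2 adjusted p = 0.70, 95% interval -0.41 to 1.21). Ccl25 had the narrowest interval of the scarce members, and a change beyond 1.21 on the log2 scale lay outside it.

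Of the 14 other CC ligands on a list drawn up for comparison, 5 had a row in the table. Ccl24 was the only one called, in the higher direction, where 3.77% of all genes tested were called higher. Ccl24 encodes eotaxin-2, which binds CCR3 as the Ccl11 product does. It had 80.3, 77.2 and 77.8 normalised counts in shControl and 129, 142, 110.5 and 112 in shBrca2. The controls were nearly equal and every shBrca2 library lay above them, as for 7.78% of all listed genes. The log2 fold change was 0.66 (SE 0.21, DESeq2 adjusted p = 0.027), opposite in sign to that of Ccl11. The call held in 8 of 14 alternative analyses, the direction being higher in each, and among the fits with 1 library left out it was lost without any 1 of shControl replicates 1, 2 and 4 or shBrca2 replicates 1 and 2 (adjusted p up to 0.21). Ccl27a, a skin chemokine, had a log2 fold change of -0.08 (SE 0.26, DESeq2 adjusted p = 0.93), and Ccl3, Ccl4 and Ccl17 had mean counts under 5.

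Genes that remove, trim or hold chemokines were compared next. Of 12 such genes, all listed, 5 were lower and 2 higher, where 5.27% of all genes tested were called lower and 3.77% higher. The median log2 fold change of the 12 was -0.75 against 0.01 for all genes. The list was drawn up with earlier results of these data known, so its counts and median are not an independent result. Ackr1, the atypical receptor that binds many CC and CXC chemokines, had 220.4, 169.5 and 154 normalised counts in shControl and 44.7, 76.9, 46.6 and 36.6 in shBrca2. Every shBrca2 library was below every control, and the log2 fold change was -1.80 (SE 0.29, DESeq2 adjusted p = 7.9e-08). Ackr1 was called in all 14 alternative analyses, from -2.10 to -1.63. It overlaps Cadm3 in the annotation.

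Ackr4, which scavenges the products of Ccl19, Ccl21 genes and Ccl25, had 280.2, 242 and 228 in shControl and 95.5, 212, 84.6 and 92.5 in shBrca2. The groups did not overlap, but shBrca2 replicate 2 came close to the controls. Its log2 fold change was -1.03 (SE 0.31, DESeq2 adjusted p = 0.020), and it overlaps Acad11 in the annotation. Ackr3, a receptor for CXCL12, ran in the same way, at 958, 646 and 916 in shControl and 159, 663, 204 and 187 in shBrca2. In that gene shBrca2 replicate 2 was inside the control range, and the log2 fold change of -1.47 (SE 0.60, DESeq2 adjusted p = 0.13) did not pass the test. Ackr2, the scavenger of inflammatory CC chemokines, was called lower at -2.64 (SE 0.85, DESeq2 adjusted p = 0.029), but its counts were low (2.53 to 16.5 in shControl and 0.861 to 3.45 in shBrca2). The Ackr2 call was lost without shControl replicate 1 (0.25), shControl replicate 4 (0.24), shBrca2 replicate 1 (0.16) or shBrca2 replicate 2 (0.13).

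Dpp4, the protease that trims the amino terminus of CCL5 and CCL11 among others, had 48.7, 26.6 and 32.1 normalised counts in shControl and 3.44, 14.6, 12.1 and 9.15 in shBrca2. The groups did not overlap, and Dpp4 fell by 1.87 on the log2 scale (SE 0.47, DESeq2 adjusted p = 0.0021). It was called in all 14 alternative analyses. The syndecans, whose heparan sulfate chains hold chemokines at the cell surface, did not move one way. Sdc3 was lower (log2 fold change -0.96, SE 0.25, DESeq2 adjusted p = 0.0029) and Sdc1 higher (0.99, SE 0.27, DESeq2 adjusted p = 0.011), and both calls held in all 14 alternatives. Ccrl2, a chemerin-binding receptor, was higher at 0.88 (SE 0.26, DESeq2 adjusted p = 0.020), and its call was lost without shControl replicate 1 (0.11) or shControl replicate 2 (0.1, not below the threshold before rounding).

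**Figure D4:**
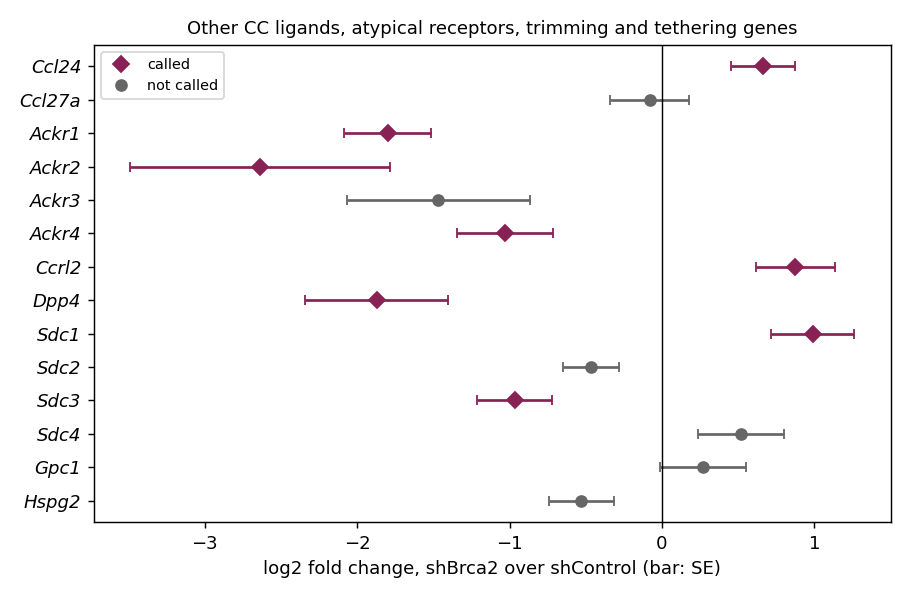
Log2 fold change of shBrca2 over shControl (horizontal axis) with standard errors for the other CC ligands with a mean normalised count over 5 and for the 12 atypical receptor, trimming and tethering genes. Diamonds mark called genes, of which Ackr1, Ackr2, Ackr4, Dpp4 and Sdc3 lie below 0 and Ccl24, Ccrl2 and Sdc1 above it.

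Regulators upstream of CC ligand genes were called at about the share of all genes (9.04%). Of 16 NF-kB pathway genes, all listed, none was called higher and 1 was called lower, Bcl3 (log2 fold change -0.52, SE 0.20, DESeq2 adjusted p = 0.095). The Bcl3 call was lost with edgeR (0.12) and without shControl replicate 1 (0.17), shControl replicate 4 (0.44), shBrca2 replicate 1 (0.42) or shBrca2 replicate 4 (0.34). The median of that list was -0.07. Of 24 cytokine receptor and signalling genes, all listed, 1 was higher and 2 were lower, with a median of -0.13. Il6st, the shared gp130 receptor of the IL-6 family, had 1089.9, 1259 and 1140.1 normalised counts in shControl and 645, 672, 772 and 571 in shBrca2. These groups did not overlap, and the log2 fold change was -0.81 (SE 0.16, DESeq2 adjusted p = 1.9e-05), called in all 14 alternatives.

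Il1rap, the accessory chain of the IL-1 receptor, was higher at 1.24 (SE 0.40, DESeq2 adjusted p = 0.034), with 11.7 to 17.1 normalised counts in shControl and 19.0 to 44.3 in shBrca2. Its call was lost without shControl replicate 1 (0.11), shControl replicate 4 (0.22), shBrca2 replicate 1 (0.21) or shBrca2 replicate 2 (0.21). Ifngr1, a chain of the interferon gamma receptor, was lower at -0.62 (SE 0.21, DESeq2 adjusted p = 0.050). It had 163 to 268 normalised counts in shControl and 126 to 149 in shBrca2, and its call held when shControl replicate 2 was left out but in no other fit that left out 1 library (adjusted p up to 0.47).

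The genes whose profiles over the 7 libraries were most like those of the 2 called members were then listed, among 6734 genes with a mean normalised count over 50. Likeness was the root mean square difference of log2(normalised count + 1) after each gene's mean was taken off. Nearest to Ccl7 were Fxyd1, a regulator of the sodium pump (0.138), Kng2, a kininogen (0.162), and Naaa, an acid amidase for lipid amides (0.162). For comparison, the root mean square of the profile of Ccl7 itself was 0.632. Fxyd1 had 1710.1, 1303 and 1685 normalised counts in shControl and 654, 1226, 779 and 655 in shBrca2, with shBrca2 replicate 2 the highest of its group as for Ccl7.

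Nearest to Ccl11 were Thbs4, a matricellular thrombospondin (0.335), Hsd11b1, which makes active glucocorticoid (0.346), and Slc7a8, an amino acid transporter (0.407), against 0.897 for the profile of Ccl11 itself. Ccl11 thus had no neighbour as close as those of Ccl7. Thbs4 had 745, 646 and 518 in shControl and 346, 157, 171 and 422 in shBrca2, with replicates 2 and 3 the lowest, as for Ccl11. All 6 genes were called lower, by log2 fold changes from -1.21 (Thbs4) to -0.88 (Naaa). That direction follows from their choice by likeness to members called lower in the same libraries and is not a separate result.

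Cell type markers moved with the groups as well, and the counts of calls below stand beside 5.27% of all genes called lower and 3.77% higher. Among fibroblast markers 2 of 9 were lower, Dcn at -0.77 (SE 0.28, DESeq2 adjusted p = 0.069) and Lum at -1.18 (SE 0.35, DESeq2 adjusted p = 0.015), and the summed level of all 9 did not overlap between groups. Abundant genes weigh most in that sum, and Dcn alone had a mean of 20576 in shControl and 12091 in shBrca2. The other markers were not called: Col1a1 (-0.04), Col1a2 (-0.09), Pdgfra (0.01), Pdgfrb (-0.06), Pdpn (-0.25), Fap (0.05) and Thy1 (-0.09). The macrophage markers, 10 of 13 listed, summed to 342 to 408 in shControl and 583 to 627 in shBrca2. Csf1r at 1.15 (SE 0.22, DESeq2 adjusted p = 2.7e-05), Cd14 at 1.21 (SE 0.38, DESeq2 adjusted p = 0.034) and C1qa at 1.65 (SE 0.63, DESeq2 adjusted p = 0.092) were higher, Cd68 at -0.32, Lyz2 at -0.26 and Fcer1g at -0.11 were not called, and Ptprc, Adgre1 and Ms4a7 were not analysed here. The summed level thus stood higher in the group in which Ccl7 and Ccl11 were lower, led by Csf1r and Cd14, while single markers went both ways. C1qa, C1qb and C1qc were highest in shBrca2 replicate 1 (33.6, 27.5 and 14.6), the library in which Ccl5 was 71.4. Cd68 was lowest there, at 60.2, and the summed level was 608 against 627 in shBrca2 replicate 3.

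The epithelial markers, 6 of 8 listed, summed to 384 to 1142 in shControl and 1434 to 2017 in shBrca2. The keratins Krt7, Krt8, Krt18 and Krt19 were called higher (Krt8 by 1.58, Krt18 by 1.18 and Krt19 by 0.996). Cdh1 (log2 fold change 1.59, mean 8.26) and Cldn7 (0.58, mean 2.08) were scarce and not called. Epcam was not analysed here. The neutrophil markers, 4 of 7 listed and led by Mmp8, Mmp9 and S100a9, ran from 39.9 to 52.1 in shControl and from 17.3 to 119.5 in shBrca2. The top value was that of shBrca2 replicate 2, the library with the highest Ccl2, where S100a9 was 54.8 against 1.71 to 6.33 elsewhere. S100a8 was highest there as well, at 21.6. The more abundant Mmp8 and Mmp9 were not. Mmp8 was 28.6 there against 32.1 in shControl replicate 4, and Mmp9 was 14.6 against 24.8 in shControl replicate 1. Of the T and NK cell markers 1 of 10 was listed, Gzma, at 0 to 3.50 normalised counts. Of the dendritic cell markers 2 of 7 were listed, Zbtb46 and Batf3, with sums of 17.7 to 23.3 and 21.6 to 36.6.

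The sums of the other lists overlapped between the groups. The mesothelial sums, led by Wt1, Msln and Upk1b, were 782 to 2387 in shControl and 1725 to 2178 in shBrca2. The pericyte sums, led by Kcnj8, Cspg4 and Notch3, were 368 to 443 and 366 to 514, with Notch3 called higher at 1.12 (SE 0.32, DESeq2 adjusted p = 0.014). The endothelial sums over Kdr, Tek and Pecam1 were 66.6 to 114.8 and 81.2 to 111, with Kdr (log2 fold change 0.52) by far the most abundant. Tek (-1.55, SE 0.62, DESeq2 adjusted p = 0.12) and Pecam1 (-3.60, SE 1.22, DESeq2 adjusted p = 0.031) were lower without overlap. Neither was called, and the mean of Pecam1 was only 3.87. The part of these cell types in the values of the chemokines, of Ackr1 and of the other pathway genes was not tested.

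**Figure D5:**
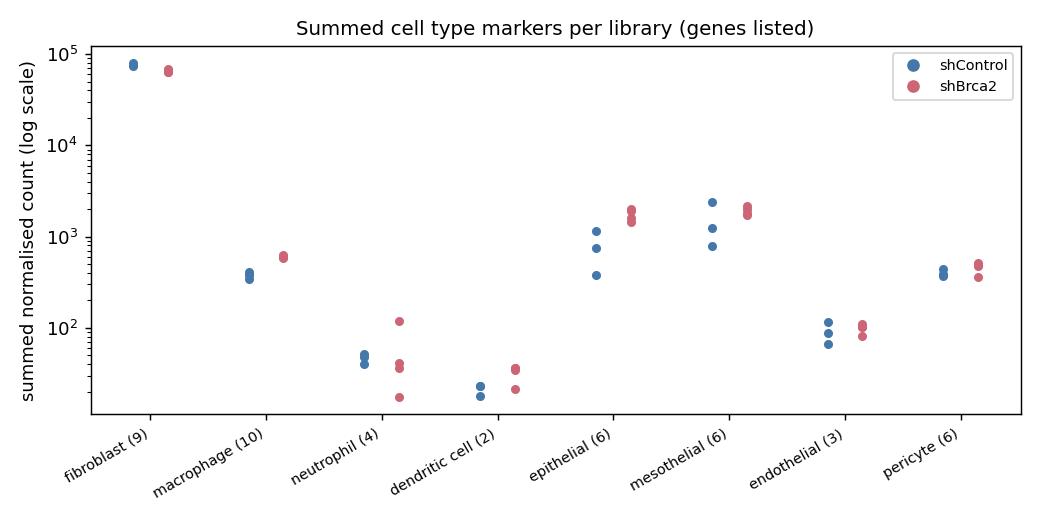
Summed normalised counts of each marker list (log axis) in the 3 shControl and 4 shBrca2 libraries, with the number of genes listed in parentheses; each point is a mouse, and the T and NK cell list, with Gzma alone, is left out. Fibroblast, macrophage and epithelial sums do not overlap between the groups, and the fibroblast sums exceed all others in every library.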

How the data were processed

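CAFs were sorted after collagenase D digestion and bead depletion of CD45+ and EpCAM+ cells. Poly(A) RNA was taken with oligo(dT) beads, and libraries were made with a variant of MARS-seq and read on a NextSeq 500. The authors deposited raw counts per gene symbol, whole numbers with no normalization, with 1 column per library. The submitters' processing notes name bcl2fastq, cutadapt, STAR 2.4.2a, HTSeq, DESeq2 and the mm10 build. The annotation, the strand setting and whether molecular barcodes were collapsed are not given in the sources used here, so counts may include PCR copies.

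DESeq2 1.42.0 (R 4.3.3) was run on all 12771 genes and all 7 libraries, with its size factors and, as the methods of the study state, a likelihood ratio test. No covariate was used, a choice made here. Calls needed an adjusted p under 0.1, an absolute log2 fold change over 0.5 and a mean normalised count over 5, and adjustment was over all genes tested. 3 genes received no p. Fold changes are given as shBrca2 over shControl, without shrinkage. The members were set by name, and members and lists were chosen with earlier results of these data known. Every listed member was named, with the called genes of each pathway list, the top 3 markers of each cell type and, for each called member with a mean over 50, the 3 nearest profiles. Other genes given with values (Ackr3, Ccl27a and single markers) were picked after their values were seen. The ratios were added after the data were examined and tested with scipy 1.17.1.

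Alternatives were edgeR 4.0.16 (quasi-likelihood test with TMM), TMM size factors, a Wald test, other filters and thresholds, a replicate block and the removal of each library, 14 in all. Total counts differed 3.16-fold. Every pair of libraries differed by more than sampling noise (lowest mean chi-square per gene 3.16). Positions were taken by symbol from RefSeq on GRCm38.p6, where 99.6% of the symbols were found. The test was run on simulated data of this comparison with 12771 genes. The shifted genes were drawn from those with a mean over 20. DESeq2 recovered 68.3% of 101 genes shifted by 1 on the log2 scale and 100% of 99 genes shifted by 2. Of its 191 calls 12% were false. These recoveries do not cover Ccl8, Ccl6, Ccl9, Ccl19 and Ccl25, whose means were under 20.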

Additional observations from a re-analysis of the deposited data

Results flagged for a closer look

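The normalised count of Ccl5 in shBrca2 replicate 1, 71.4, stood apart from the other 3 libraries of its group, at 8.64, 12.2 and 19.2. The gap to the nearest library, divided by the range of the group, was 0.831 on unlogged values, just above Dixon's 95% critical value for 4 samples. The gap on a log scale was not examined. In all 17 groups of 4 values were examined in this way, and chance marks about 1 in 20 where values are normally distributed. In the same library the macrophage genes C1qa, C1qb and C1qc were the highest of the 7 (33.6, 27.5 and 14.6), while Cd68 was the lowest, at 60.2. The T cell marker Gzma was at 0.861 there. The part of these cell types in the Ccl5 value was not tested.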

How the results depend on the processing

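Over the 14 alternatives no member was called higher. The number of members called lower, 2 with all libraries, was 1 with edgeR and 1 at an adjusted p under 0.05, and 1 to 3 with 1 library left out. With 1 library left out the log2 fold change of Ccl5 ran from -0.13 (without shBrca2 replicate 1) to 1.17 and that of Ccl17 from -0.01 (without shControl replicate 1) to 1.26, neither being called. Of the pathway genes, 4 were called higher and 8 lower, and leaving out 1 library gave 1 to 4 higher and 5 to 10 lower. Over all genes, 481 were called higher and 673 lower, against 261 to 610 and 354 to 695 with 1 library left out.

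Same-numbered libraries did not deviate together (correlations -0.091, -0.127 and -0.14 for numbers 1, 2 and 4), and no control library correlated best with its own number, so the numbers were not taken as pairs. With the replicate number as a block, 211 genes were called higher and 280 lower, and 1 pathway gene was called higher. Ccl11 (DESeq2 adjusted p = 0.0043) and Ccl7 (0.1, just below the threshold before rounding) were called lower. The block ended the calls of Ccl24 (adjusted p = 0.35), Ccrl2 (0.11), Il1rap (0.18), Ifngr1 (0.41) and Bcl3 (0.19) and left Ackr2 without an adjusted p. It also left Ccl6, Ccl9 and Ccl19 without an adjusted p, and the filter at a mean of 20 or more left out Ccl8, Ccl6, Ccl9, Ccl19 and Ccl25. The cause of these changes was not tested, beyond the fewer samples or genes that enter. Low counts, at most 37 for Ccl8 and 16 for Ccl6, limit what can be seen in the scarce members.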
